A study of Mus musculus with 9 samples.

Results

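The genes described here encode deubiquitinases, the enzyme class to which BAP1 itself belongs, and the measurement is where BAP1 was found at these genes in a B cell precursor line. The members were taken by gene symbol from the protein-coding genes of the GENCODE M1 annotation of mouse build NCBIM37 (mm9), as all symbols that start with *Usp* and a number, with *Uchl*, with *Otud* or with *Otub*, together with *Bap1*. Without the 1 such gene on chromosome Y, the rule found 65 genes among 22367 protein-coding genes, of which 50 have USP symbols, 10 OTU symbols and 5 belong to the UCH family. *Usp35* was left out because this annotation lists it as noncoding. *Usp6nl* was kept because its symbol fits, although its product is a regulator of Rab GTPases and not a protease.

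BAP1 binding was mapped by ChIP-Seq in Ba/F3 cells, a mouse B cell precursor line grown with IL-3 from WEHI conditioned medium. Chromatin was taken from wild type Ba/F3 cells with an antibody against BAP1 (52.8 μg), and from Ba/F3 cells that stably express triple-FLAG-tagged murine BAP1 under puromycin selection, with an antibody against the FLAG epitope (5 μg). The 2 immunoprecipitations were deposited as 1 common list of 13164 peaks, so no value below has a replicate error, and the list does not say in which sample a peak was found. Every peak is 200 bp wide and has no height or p-value, the sequencing depth behind the list is unknown, and a gene without a listed peak is not shown to be free of BAP1. The series' 4 input samples and 3 H2AK119ub samples, which include the *Bap1* knockout clones, were not analysed here.

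Ubiquitin is a small protein that is attached to other proteins to mark them for degradation or to change what they do, and deubiquitinases take it off again. Most are cysteine proteases, and the USP, UCH and OTU families differ in the fold of the catalytic domain. BAP1 is a UCH enzyme that removes ubiquitin from histone H2A, a repressive mark placed by Polycomb complexes, and it acts on chromatin together with partners such as ASXL proteins, HCF1 and YY1.

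*Bap1* itself carried a peak. Its middle lay 86 bp upstream of the transcription start site (TSS), at chr14:32064490-32064689, and the gene spans chr14:32064675-32073115, plus strand. The same peak lies within 1 kb of the TSS of *Phf7*, which is transcribed in the opposite direction. No further peak lay in the *Bap1* gene, which has 17 coding exons. Among the other UCH genes, *Uchl5*, which encodes a deubiquitinase of the proteasome, had 1 peak 73 bp upstream of its TSS, and this peak is shared with the oppositely transcribed *Trove2*. *Uchl3* had 2 peaks, with their middles 306 bp upstream and 85 bp downstream of its TSS. *Uchl1*, known as an abundant neuronal protein, had its nearest peak 443 kb away. *Uchl4*, whose coding sequence lies in 1 exon and resembles that of *Uchl3*, had its nearest peak 18.5 kb away, next to the TSS of *Map2k1*.

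The upstream peaks of the 3 UCH genes with a peak differ in how many CpG dinucleotides they hold. Each is given 5′ to 3′ on the plus strand, on which all 3 genes lie, with CpG dinucleotides in capitals. The *Bap1* peak holds 41 of them, the highest count among the members' peaks, the *Uchl5* peak at chr1:145624236-145624435 holds 27, and the upstream *Uchl3* peak at chr14:102052779-102052978 holds 12. That *Uchl3* peak does not cover the TSS, as the *Bap1* and *Uchl5* peaks do. The other *Uchl3* peak, 85 bp downstream, covers it and holds 27, as many as that of *Uchl5*.
Bap1: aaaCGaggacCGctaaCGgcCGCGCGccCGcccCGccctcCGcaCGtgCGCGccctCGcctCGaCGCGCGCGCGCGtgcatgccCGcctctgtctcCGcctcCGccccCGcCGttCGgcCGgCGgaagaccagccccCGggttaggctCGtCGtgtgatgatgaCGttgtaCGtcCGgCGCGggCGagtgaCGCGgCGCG
Uchl5: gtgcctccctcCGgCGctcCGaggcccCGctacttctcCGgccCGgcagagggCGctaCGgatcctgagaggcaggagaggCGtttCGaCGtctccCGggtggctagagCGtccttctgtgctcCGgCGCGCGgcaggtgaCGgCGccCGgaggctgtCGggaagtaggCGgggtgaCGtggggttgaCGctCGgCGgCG
Uchl3: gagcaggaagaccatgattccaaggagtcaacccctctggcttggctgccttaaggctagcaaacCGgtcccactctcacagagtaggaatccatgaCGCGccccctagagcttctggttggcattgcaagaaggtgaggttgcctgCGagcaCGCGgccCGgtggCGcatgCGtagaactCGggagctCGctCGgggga

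A gene-proximal peak is one whose middle is no more than 1 kb from the TSS of any annotated transcript of a gene. Such a peak was present at 44 of the 65 genes, or 67.7% (95% Wilson interval 55.6 to 77.8, for counting error only). Of all protein-coding genes, 8850 had one, or 39.6%. The share was 68.0% of the USP genes (34 of 50), 70.0% of the OTU genes (7 of 10) and 60.0% of the UCH genes (3 of 5), and the intervals of these shares overlap, at 54.2 to 79.2, 39.7 to 89.2 and 23.1 to 88.2%. These counts come from 1 list and were not compared by a test.

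The members with a peak were mostly settled by the smallest windows. Within 100 bp of a TSS there was a peak at 34 genes (52.3%), against 30.8% of all protein-coding genes, and within 500 bp at 41 genes (63.1%), against 38.6%. Between 2 kb and 10 kb the number stayed at 45 (69.2%), while the share of all protein-coding genes rose from 40.4 to 46.0%. The shares then approached each other, at 87.7 and 72.7% within 100 kb.

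**Figure D1:**
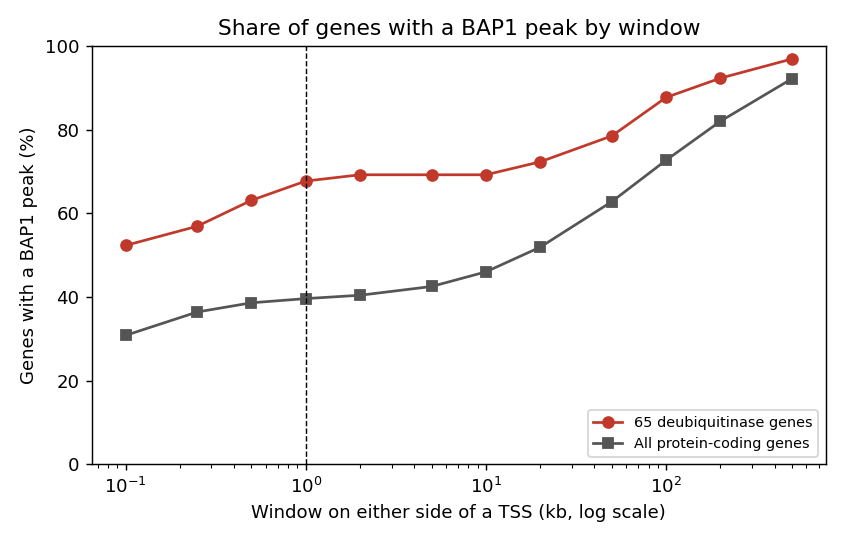
Share of genes with a BAP1 peak (%, vertical axis) against the window on either side of a TSS (kb, log scale), for the 65 deubiquitinase genes (red circles) and all 22367 protein-coding genes (grey squares), with a dashed line at 1 kb. The members' share is 67.7% at 1 kb and 69.2% from 2 to 10 kb, and it lies above that of all genes at every window plotted.

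The 44 genes carried 51 peaks within 1 kb. Measured from the nearest TSS of the gene, with upstream negative, the median position was -39.0 bp, with quartiles of -117 and -6.5 bp. For the 10073 peaks within 1 kb of any annotated TSS the median was -28.0 bp (quartiles -75.0 and 8.0). Those positions were measured from the nearest TSS of any gene, coding or noncoding. They are therefore not measured as the members' positions are, and the difference cannot be read as a trait of the members. The middle was upstream for 43 of the members' peaks (84.3%), beside 69.7% of all gene-proximal peaks by that other measure. Of the members' peaks, 35 (68.6%) covered a TSS. The middle of 30 peaks lay outside the annotated gene, of 13 in a noncoding exon or untranslated part of an exon, and of 8 in an intron. The peaks farthest from a TSS inside the window belonged to *Usp7* (548 bp), *Usp34* (546 bp), *Usp1* (522 bp), *Otud4* (469 bp) and *Usp25* (410 bp), all of them upstream. Outside the window the closest was that of *Usp49*, at 1131 bp, followed at a wide interval by *Usp11* at 15.5 kb. The limit of 1 kb therefore falls in a sparse stretch, with no member's nearest peak between 548 and 1131 bp.

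**Figure D2:**
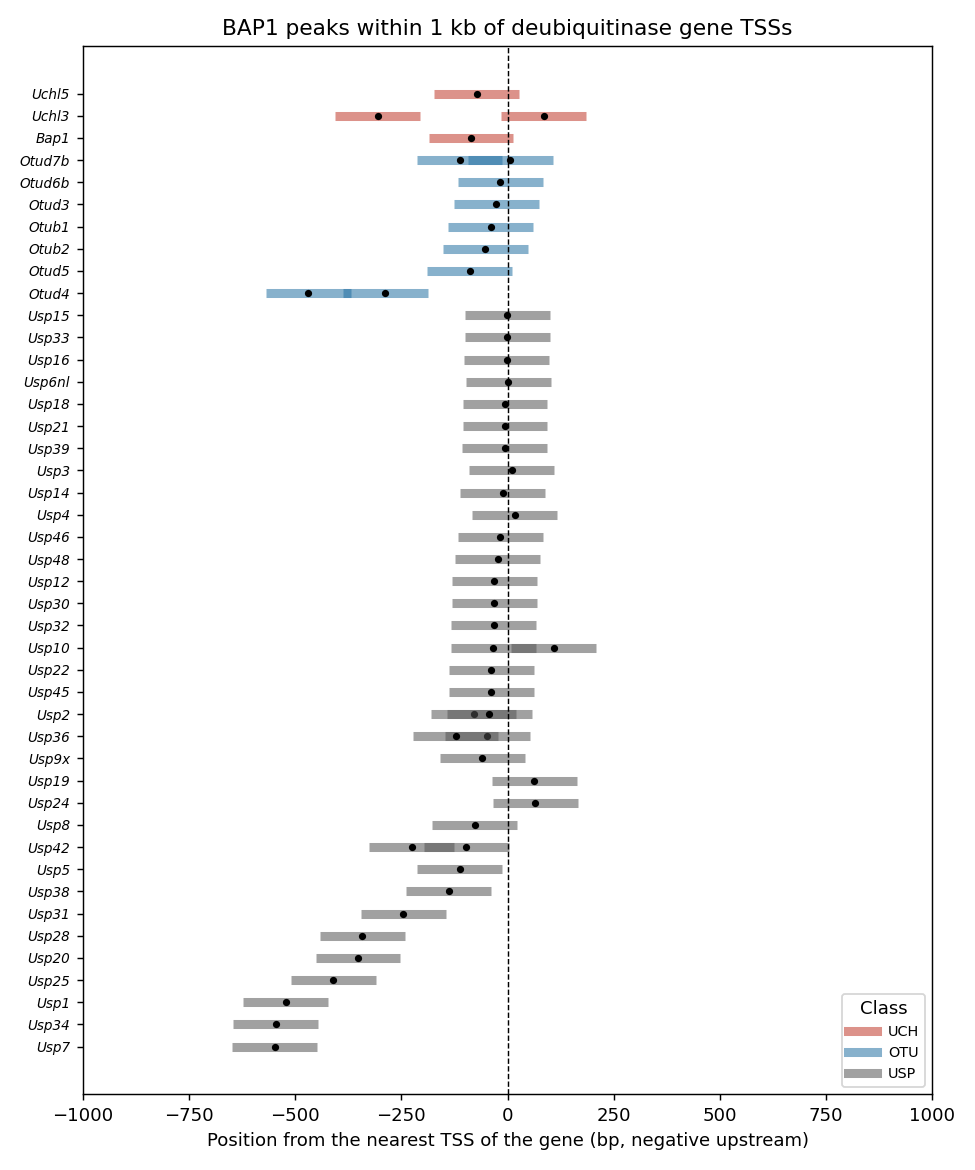
Position of each of the 51 gene-proximal peaks from the nearest TSS of its gene (bp, negative upstream), 1 row per gene, with the middle as a dot and the 200 bp interval as a bar colored by class. Most middles sit just upstream of the TSS, and none is farther downstream than 109 bp. Where a gene has more than 1 TSS, as *Usp2*, *Usp10* and *Usp36* do, peaks at different TSSs share a row.

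The listed deubiquitinases of histones had peaks about as often as the members as a whole, and the list may not hold every such enzyme. Of 10 members in this list, 7 had one, beside 67.7% of all members and 39.6% of all protein-coding genes. *Usp16* and *Usp21*, whose products are known to remove ubiquitin from H2A, had peaks with their middles 2 and 6 bp upstream of a TSS. The authors write that this role of USP16 has been questioned, because the protein is found mostly in the cytosol. *Usp3*, another H2A deubiquitinase, had its peak 10 bp downstream. *Usp22*, the deubiquitinase of the SAGA coactivator, had a peak 38 bp upstream, and the related pair *Usp12* and *Usp46* had peaks 31 and 17 bp upstream. The remaining genes of the list had none. The nearest peak lay 58.2 kb from *Usp44*, which acts on H2B, and 56.4 and 133 kb from *Usp27x* and *Usp51*, the X-linked relatives of *Usp22*. The authors also list *Usp44* among the deubiquitinases of H2A. Its relative *Usp49* was not in the list used here and had no gene-proximal peak. Outside the symbol rule, the histone deubiquitinases *Mysm1* and *Brcc3* each had 2 gene-proximal peaks.

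Members that act at the proteasome, in splicing and in genome maintenance were listed by function. *Usp14*, which binds the proteasome as *Uchl5* does, had a peak 11 bp upstream of a TSS, and *Psmd14*, the metalloprotease of the same particle, had 2 peaks. *Usp39*, a catalytically inactive member required for splicing, had a peak 7 bp upstream. All 5 listed genes of genome maintenance had one, beside 67.7% of all members and 39.6% of all protein-coding genes. This list is partial, and it was not set against other genes by a test. It leaves out *Usp47*, a deubiquitinase linked to base excision repair, which had no gene-proximal peak. The peaks of *Usp48* and *Otub1* lay 23 and 39 bp upstream of a TSS, and those of *Usp28*, *Usp1* and *Usp7* farther off, at 342, 522 and 548 bp. *Usp1* acts on the Fanconi anemia protein FANCD2 and on PCNA, and *Usp7* on MDM2 and p53.

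Genes known to be induced by interferon or IL-3 were listed apart. Of the 4 annotated genes of this list, 1 had a peak, beside 39.6% of all protein-coding genes. It was *Usp18*, which is induced by interferon and removes the ubiquitin-like protein ISG15, with a peak 6 bp upstream of its TSS. *Dub1*, *Dub1a* and *Dub2a*, which the symbol rule does not take, had none. Their CpG ratios, defined below, were 0.124, 0.064 and 0.022, and of all coding genes with a ratio under 0.6, 13.2% had a peak. These 3 genes are closely similar copies where reads may not map to 1 place, so their lack of a peak is uncertain.

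Other members with a peak are given by position. The peaks of *Usp33*, which acts on receptors and in Robo signaling, and *Otud3* lay 1 and 27 bp upstream of a TSS. *Usp30*, which opposes mitophagy at the mitochondrial outer membrane, and *Usp32* had peaks 31 and 32 bp upstream. *Otub2*, *Usp9x* and *Otud5* had peaks 52, 59 and 89 bp upstream, and *Usp45* and *Usp38* 38 and 138 bp upstream. The middle lay downstream of the TSS at *Usp6nl* (2 bp), *Usp19* (63 bp) and *Usp24* (65 bp). *Usp20* stood farther off at 352 bp upstream.

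For *Usp7* the result depends on the TSS that is used. The start of its longest transcript lies 31.5 kb from the peak and has a CpG ratio of 0.484 (observed over expected, in 500 bp on either side), while the TSS next to the peak has a ratio of 1.02. With only the longest transcript of each gene, *Usp7* is the member that loses its peak.

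More than 1 gene-proximal peak was found at 7 of the 44 genes (15.9%), against 25.5% of all protein-coding genes with a peak. Those of *Otud7b*, *Usp42*, *Otud4* and *Usp10* overlapped, with middles 118, 129, 181 and 186 bp apart. The peaks of *Usp36* and *Uchl3* were separate, with middles 246 and 391 bp apart. *Usp2*, a deubiquitinase linked to circadian rhythm, differed in that its peaks were 17936 bp apart and marked different TSSs, 80 and 43 bp upstream of them. Merging peaks whose edges lie within 500 bp left 45 intervals at the members. Further peaks inside a gene but more than 1 kb from its TSSs were found in *Usp20* (2 peaks), *Usp37* (2 peaks) and *Usp9x* (1 peak, 1143 bp from the TSS).

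A peak shared with the TSS of an oppositely transcribed coding gene occurred at 5 of the 44 genes (11.4%), against 24.3% of all protein-coding genes with a peak. Besides *Bap1* with *Phf7* and *Uchl5* with *Trove2*, these were *Usp5* with *Cdca3*, *Usp20* with *BC005624* and *Usp31* with *1700069B07Rik*. At these genes the list cannot assign the peak to 1 gene of the pair.

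In the 51 peaks, 8 short motifs were sought on either strand, and their matches did not overlap in these peaks. The core of the ETS motif, CCGGAAG, was in 10 peaks (19.6%, against 20.2% of all gene-proximal peaks), the SP1 motif GGGGCGGGG in 14 (27.5 against 23.5%), the NFY motif CCAAT in 9 (17.6 against 30.0%), the NRF1 motif GCGCATGCG in 2 (3.92 against 4.04%) and the E2F motif TTTCCCGC in 1 (1.96 against 1.56%). The CRE motif TGACGTCA, in 3.35% of all gene-proximal peaks, and the palindromic element TCTCGCGAG, in 1.44%, were in 0. The YY1 core AAGATGGCG was in 6 peaks (11.8%, against 3.71%). A match describes these letters and does not show that the factor was bound.

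The 6 matches to the YY1 core are shown because YY1 is a known partner of BAP1, and they were singled out after their count was seen. Each is printed on the strand that reads AAGATGGCG, with the match in capitals and 10 bases on either side. This is the strand of the gene for all but *Usp34*. The match of 5 genes begins within 28 bp of a TSS, and that of *Usp34* lies at -622 bp. At *Usp15* and *Otub1* the letters ATG of the match hold the annotated start codon.
Usp21 (chr1:173218032-173218060, minus strand): ggcaccaacaAAGATGGCGgcggcccttg
Usp6nl (chr2:6243687-6243715, plus strand): cgcccgcgccAAGATGGCGgcggccgcgg
Usp10 (chr8:122434739-122434767, plus strand): gtgcggcgagAAGATGGCGgcgacgggag
Usp15 (chr10:122633956-122633984, minus strand): ctagtggaagAAGATGGCGgaaggcggag
Usp34 (chr11:23206284-23206312, minus strand): gggtgagtggAAGATGGCGgaggctgcgg
Otub1 (chr19:7280734-7280762, minus strand): gcgctgtttaAAGATGGCGgcggaggaac

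The 21 genes without a gene-proximal peak were *Uchl1*, *Uchl4*, *Otud1*, *Otud6a*, *Otud7a*, *Usp11*, *Usp13*, *Usp17l5*, *Usp26*, *Usp27x*, *Usp29*, *Usp37*, *Usp40*, *Usp43*, *Usp44*, *Usp47*, *Usp49*, *Usp50*, *Usp51*, *Usp53* and *Usp54*. Their nearest peak lay at a median distance of 63.2 kb, from 1.13 kb for *Usp49* to 901 kb for *Usp47*. For several of them the nearest peak marked another gene. That of *Usp11* was at *Cdk16*, 15.5 kb upstream, that of *Usp13* at *Mrpl47* and *Ndufb5*, 80.7 kb upstream, and that of *Usp50* at *Usp8*, 63.2 kb away. The farthest were those of *Usp47*, *Usp26* (783 kb), *Otud7a* (452 kb), *Usp17l5* (444 kb) and *Uchl1*.

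The peaks on either side show how wide the empty stretches are. *Usp54* lies in a stretch of 94.5 kb between neighboring peaks, and *Uchl4* in one of 74.4 kb. *Otud7a* and *Uchl1* lie in stretches of 956 and 923 kb, in which 2 and 5 protein-coding genes start. *Usp17l5* lies in a stretch of 1174 kb in which 69 protein-coding genes start, of which 0 have a CpG-rich promoter in the sense given below. *Usp26* and *Otud6a*, on chromosome X, lie in stretches of 1894 and 1024 kb. *Usp40* and *Usp29* had their nearest peaks 107 and 120 kb away, *Usp53* 60.1 kb and *Usp43* 43.5 kb away.

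**Figure D3:**
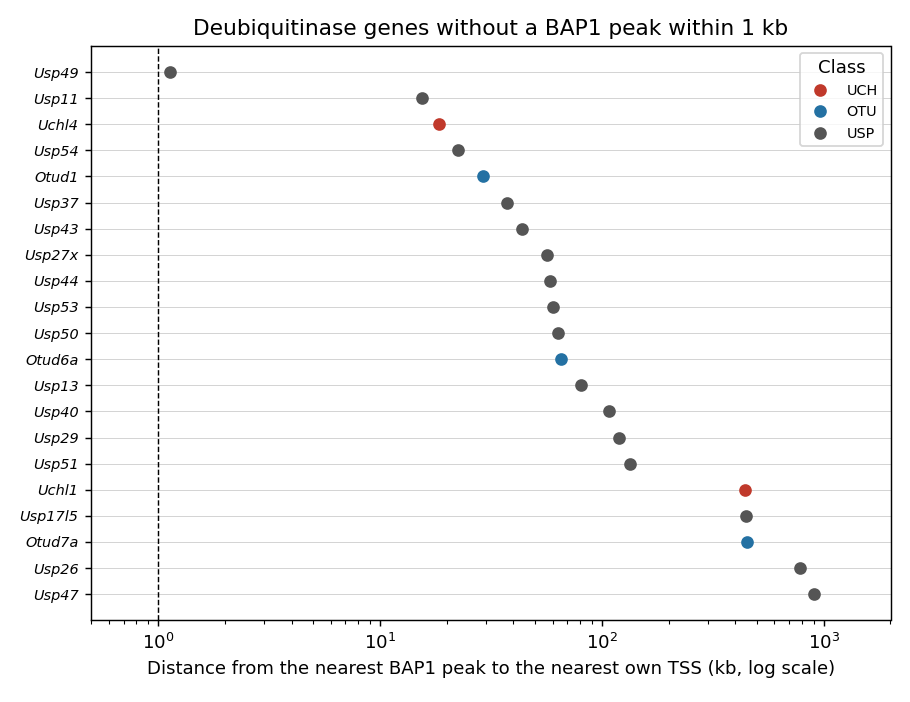
Distance from the nearest BAP1 peak to the nearest own TSS (kb, log scale) for the 21 deubiquitinase genes without a peak within 1 kb, 1 row per gene, colored by class, with a dashed line at 1 kb. *Usp49* lies just past the line at 1.13 kb, and all others lie at 15.5 kb or more.

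Some of these genes share features of gene structure or chromosome. The coding sequence lies in 1 exon for *Otud1*, *Otud6a*, *Uchl4*, *Usp26*, *Usp27x*, *Usp29* and *Usp51*, and a gene-proximal peak was found at 0 of the 7, against 12.1% of all protein-coding genes of that structure. Among these 7, *Otud6a* and *Usp29* are annotated with lengths of only 0.873 and 2.61 kb and with 1 TSS each. Whether their transcripts start at that TSS was not tested. Of the 58 genes with more than 1 coding exon, 44 had a peak (75.9%), against 45.3%. On chromosome X, 2 of 7 members had one, *Otud5* and *Usp9x*, or 28.6%, close to the 23.6% of all coding genes there. On the autosomes it was 42 of 58 (72.4%), against 40.3%. The groups overlap, since the members on chromosome X without a peak, all but *Usp11*, also have their coding sequence in 1 exon. With 7 genes in each of the small groups, the 95% Wilson intervals reach from 0 to 35.4% for the genes with 1 coding exon and from 8.22 to 64.1% for chromosome X, and each holds its background share.

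Promoter base composition moved with the presence of a peak. The CpG ratio at the start of the longest transcript had a median of 0.843 in the 44 genes with a peak (range 0.484 to 1.06) and 0.571 in the 21 without (0.074 to 1.06), and the ranges overlap widely. Among all protein-coding genes the medians were 0.764 and 0.296. The peaks themselves held a median of 24 CpG dinucleotides in 200 bp at the members and 19 at all gene-proximal peaks, with a median GC content of 70.5 and 67.0%. Counts in the members' peaks ranged from 10 at *Usp9x* to 41 at *Bap1*. Genes with a peak had a median of 16 coding exons and 4 annotated TSSs, against 7 and 2 in genes without, and since any TSS could count, a gene with more TSSs had more chances to be scored. At a ratio of 0.6 or more, here called CpG-rich, 42 of 52 members had a peak (80.8%, 95% Wilson interval 68.1 to 89.2), against 70.2% of all CpG-rich coding genes, a background that lies inside the interval. Under 0.6 it was 2 of 13 (15.4%, 4.33 to 42.2), against 13.2%. The 2 genes were *Usp21*, at 0.566, and *Usp7*.

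CpG-rich promoters made up 80.0% of the members and 46.3% of all protein-coding genes. At the background share of each CpG class, 38.2 of the 65 members would have had a peak (58.8%), beside the 44 counted (67.7%). This reference uses only 2 classes of CpG ratio. The part of base composition in the members' share was not tested. Expression of these genes in Ba/F3 cells was not measured in the data used here, and its part in the result was not tested.

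**Figure D4:**
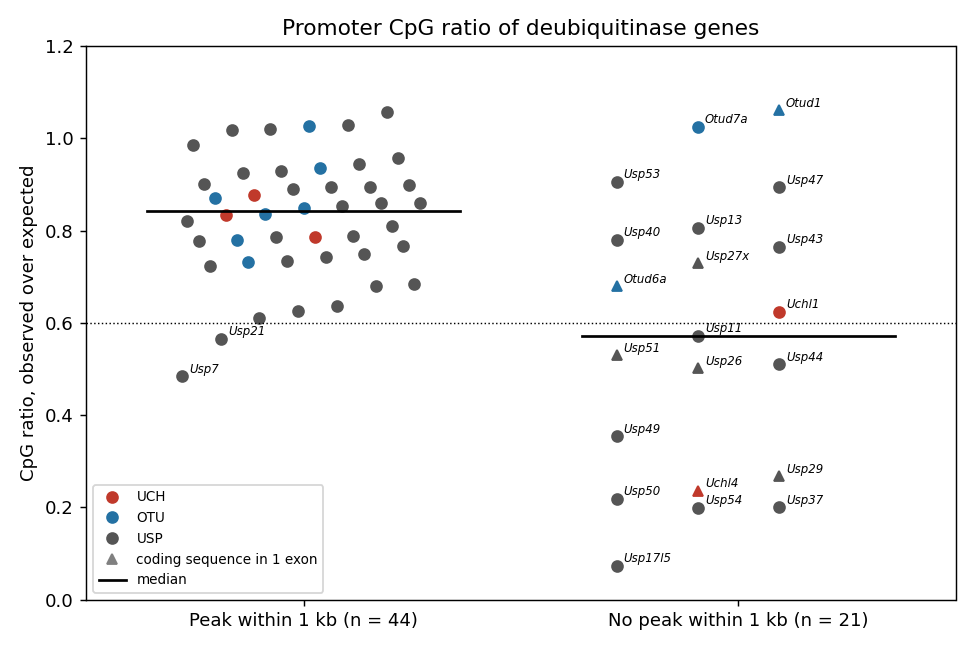
CpG ratio of the promoter (observed over expected, 500 bp on either side of the start of the longest transcript) for the 44 members with and the 21 without a peak within 1 kb. Each point is a gene, colored by class, triangles have their coding sequence in 1 exon, horizontal bars are medians (0.843 and 0.571), and the dotted line marks 0.6. Of the genes with a peak, only *Usp21* and *Usp7* lie under the line, and 10 genes without a peak lie above it.

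The 10 CpG-rich genes without a peak were *Otud1* (1.06), *Otud7a* (1.02), *Usp53* (0.906), *Usp47* (0.894), *Usp13* (0.806), *Usp40* (0.780), *Usp43* (0.765), *Usp27x* (0.729), *Otud6a* (0.679) and *Uchl1* (0.624). The nearest peak of *Otud1* was 29.0 kb away. For *Otud6a* the annotated gene is only 0.873 kb long with 1 TSS, and whether its transcripts start there was not tested.

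Related genes were set side by side in groups taken from general knowledge of the families, without a measure of sequence identity. Among 19 such groups with more than 1 coding gene, all genes had a peak in 8, none in 3 and some but not all in 8. These counts stand beside the 67.7% of all members with a peak, and they do not show that related genes were more alike than unrelated ones, which was not tested. Both genes had one in the pairs *Usp12* and *Usp46*, *Usp16* and *Usp45*, *Usp2* and *Usp21*, *Usp20* and *Usp33*, *Usp24* and *Usp9x*, *Usp25* and *Usp28*, *Usp36* and *Usp42*, and *Otub1* and *Otub2*. *Usp25* and *Usp28* also resembled each other in position, at 410 and 342 bp upstream. No gene had one among *Usp26*, *Usp29* and *Usp37*, in the pair *Usp44* and *Usp49*, or in *Usp53* and *Usp54*.

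In the mixed groups, *Usp4* and *Usp15* had peaks 17 bp downstream and 1 bp upstream of a TSS, while *Usp11* on chromosome X had none. *Usp5*, which takes apart free ubiquitin chains, had a peak 112 bp upstream, while *Usp13* had none although its CpG ratio (0.806) was close to that of *Usp5* (0.778). *Otud7b*, a regulator of NF-κB signaling, had 2 peaks, and *Otud7a* had none at a ratio of 1.02 against 0.836. *Otud6b* had a peak 17 bp upstream and *Otud6a*, with 1 coding exon, had none. *Usp8*, which acts in endosomal sorting, had a peak 77 bp upstream and *Usp50* none, and *Usp31* had a peak 245 bp upstream and *Usp43* none.

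Genes outside the symbol rule whose products have the fold of a deubiquitinase family were counted from a list of 27 annotated genes, of which 23 had a gene-proximal peak (85.2%), beside the 39.6% of all protein-coding genes. This is no share of active deubiquitinases, since the list also holds proteins known for other functions, such as the splicing factor *Prpf8*, the translation initiation factor subunits *Eif3f* and *Eif3h*, the inactive subunits *Cops6* and *Psmd7*, the deadenylase subunit *Pan2*, the SUMO protease *Uspl1* and *Alg13*, which acts in protein glycosylation. Only *Cops6*, *Josd2*, *Stambp* and the *Dub* genes of the list had a CpG ratio under 0.6. Of all CpG-rich coding genes, 70.2% had a peak, a closer reference for this list than 39.6%. All 12 genes with a JAMM or related domain had a peak, among them *Cops5* of the COP9 signalosome, and so did the 3 Josephin genes *Atxn3*, *Josd1* and *Josd2*. Of other OTU genes, 5 of 6 had a peak, among them *Tnfaip3*, which encodes the NF-κB inhibitor A20, at 30 bp upstream. *Alg13* had none, and its nearest peak lay 1636 kb away. Of other genes with the USP fold, *Cyld*, *Uspl1* and *Pan2* had a peak and *Dub1*, *Dub1a* and *Dub2a* had none. *Dub1* is known as an early gene induced by IL-3, and its nearest peak was 438 kb away. *Dub1*, *Dub1a*, *Dub2a* and *Usp17l5* belong to a family of closely similar copies on chromosome 7, where reads may not map to 1 place, so their lack of a peak is uncertain. *Dub1*, *Dub1a* and *Dub2a* had CpG ratios of 0.124, 0.064 and 0.022.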

How the data were processed

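The authors aligned ChIP-Seq reads of Ba/F3 cells to mouse build mm9 using Bowtie 1.0.0, and called peaks with MACS 1.4.2 (versions from the submitters' processing notes) against input DNA of the same cells. The authors deposited 1 list for the anti-BAP1 and anti-FLAG samples together, as peak coordinates in bp, start and end. The rule that joined the samples and the threshold are not given in the sources used here. The list has no scores, so the effect of another threshold was not tested.

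The middle of each peak (start plus 100 bp) was compared with every TSS of GENCODE M1 on NCBIM37, the same build as mm9. The 13 protein-coding genes of the mitochondrial genome were left out. CpG ratios and motif matches were computed from the genome sequence. Shares have 95% Wilson intervals, which cover counting error only. No test was run, since the list has no replicates. Named were all UCH genes, all members without a peak, all members with more than 1, the 5 nearest the limit on either side, and the fixed lists of functions and paralogs. One listed group of genes is not reported here. The members and lists were chosen with earlier results of these data known. Distances equaled those of bedtools 2.31.1 for 10000 of 10000 random positions. Scripts ran under Python 3.11.15 (pandas 2.3.3, numpy 2.4.6, pysam 0.24.0, scipy 1.17.1, matplotlib 3.10.9). Alternatives were other windows, the peak's edge, other TSSs, merged peaks, other promoter widths and fewer members. Those without *Usp6nl* and with the highest CpG ratio over all TSSs of a gene were chosen after seeing the data.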

Additional observations from a re-analysis of the deposited data

How the results depend on the processing

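The 33 alternative values of the 6 results stayed within the spread or factor set for them, and none changed direction. These limits included the 95% Wilson interval for the share and a factor of 1.5 for counts. For the median position the limit was the standard deviation of positions, a wide one, since positions ran from -548 to 109 bp. Leaving out *Usp6nl*, which has a peak, could not change the number of genes without one. The share of members with a gene-proximal peak ranged from 63.1% with a window of 500 bp, at which *Usp1*, *Usp7* and *Usp34* were lost, to 69.8% without the copied gene models *Usp17l5* and *Uchl4*. The number without a peak ranged from 20 to 24, the number of peaks from 45 to 59 and the median position from -39.0 to -32.0 bp. With only the longest transcript the share was 66.2%, beside 37.6% of all protein-coding genes, and without *Usp6nl* it was 67.2%. The median CpG ratio ranged from 0.724 to 0.907 in genes with a peak and from 0.571 to 0.624 in genes without. No paired analysis was possible because the samples were deposited as 1 common list, and for the same reason no sample could be left out. The depth is unknown, so the absence of a peak is an absence from the list.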

Other observations

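*Usp47*, a deubiquitinase linked to base excision repair, lies in a long stretch without any listed peak. The peaks on either side have their middles at 118266284 and 120512932 on chromosome 7 (mm9), 2247 kb apart. Between them start 9 protein-coding genes, *Galntl4*, *Usp47*, *Dkk3*, *Mical2*, *Micalcl*, *Parva*, *Tead1*, *Arntl* and *Btbd10*, of which all but *Dkk3* and *Micalcl* have CpG-rich promoters. Of the 7140 stretches between neighboring peaks in which a CpG-rich coding gene starts, 132 are at least as long and 9 hold 7 or more such genes, this one included in both. The stretch was singled out after its values were seen, and its cause was not tested.

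*Usp37*, which acts on cyclin A, counts as a gene without a peak by the annotation used. Its only annotated TSS has a CpG ratio of 0.200 and lies 48501 bp upstream of the coding start. The 2 peaks inside the gene lie between these points, next to the TSS of the oppositely transcribed *Rqcd1*, and the one nearer the *Usp37* coding start is 10.2 kb upstream of it. The CpG ratio around that peak is 0.855. *Usp54* has a similar arrangement outside the gene, with a ratio of 0.199 at the start of the longest transcript and a peak 22.6 kb upstream of that TSS, around which the ratio is 0.892. Whether transcripts of these genes start at the peaks was not tested.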
